A study of Mus musculus with 9 samples.

Results

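Messenger RNA was compared between cells sorted from the hippocampus of mice aged 6 to 8 weeks by a green Sox2 reporter (Sox2-GFP) and cells sorted from the same region by a red doublecortin reporter (DCX-DsRed). The groups were chosen by sample title, 3 arrays each, and made up 6 of the 9 arrays of the series. The other 3 arrays held Sox2-GFP cells of the subventricular zone. They entered the estimate of the spread, the choice of probes and, where slides were modelled, the slide terms. The series title is about IGF2 in adult neurogenesis of the hippocampus. The comparison sets a reporter of neural stem cells against a reporter of newborn neurons.

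Sox2-GFP mice carried GFP under the Sox2 promoter and DCX-DsRed mice carried DsRed under the Dcx promoter, and the labels give no other allele, treatment or sex. The reporters were in separate transgenic lines, so line and cell population cannot be told apart. Tissue was pooled before sorting (10 hippocampi and subventricular zones an experiment, per the labels), and RNA of 1000 cells of each population was amplified. The labels do not say whether arrays A, B and C of a group came from separate pools, so the p-values cover only how these samples vary, in part perhaps for technical reasons.

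Sox2 is a transcription factor of neural stem cells that astrocytes and ependymal cells also express, and Dcx is a microtubule-binding protein of migrating newborn neurons. The hippocampus lies beside the lateral ventricle, whose lining includes ependymal cells with beating cilia and the choroid plexus, the epithelium that secretes cerebrospinal fluid. Its white matter holds oligodendrocytes, the glia that wrap axons in myelin. Lists of genes of these and other cell types describe below which transcripts differed. Members that were not called, Slc4a10 and some further called members are named as examples picked after their values were seen. In sorted bulk samples, fewer cells of a type and less RNA per cell cannot be told apart.

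Levels are log2 signal minus the 75th percentile of the array they come from, so a gene at 0 sits at that percentile. Each unit of difference doubles the signal. Between 80.25% and 86.04% of probes were well above background on these 6 arrays. Sox2-GFP array C stood apart from A and B. Over the genes tested, as a description, its r was 0.816 with A and 0.783 with B, while A and B had 0.919. The median absolute difference between array C and the mean of A and B was 0.865, against 0.401 between A and B. Sox2-GFP A and B were alone on 1 slide, DCX-DsRed A and B shared another, and Sox2-GFP C and DCX-DsRed C shared slide 3. With slide as a block, the Sox2-GFP side therefore rests on array C. For named genes, a call that ends without array C or with the slide block is marked as such.

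The genes behind the reporters did not separate the groups in the direction of the sort. Sox2 read 0.94, 0.92 and -0.95 on the Sox2-GFP arrays and 1.29, 1.70 and 1.70 on the DCX-DsRed arrays. Sox2 mRNA was lower on every array labelled Sox2-GFP than on any labelled DCX-DsRed, with array C the lowest (log2 difference -1.26, SE 0.59, adjusted p = 0.335 by limma). With slide as a block, where the Sox2-GFP side rests on array C, the difference of Sox2 was -3.0. Without array C it was -0.63 (adjusted p = 0.574 by limma). Dcx read -0.20, -0.76 and -2.88 on the Sox2-GFP arrays and -1.31, -0.79 and 1.28 on the DCX-DsRed arrays, and the groups overlapped (log2 difference -1.01, SE 1.46, adjusted p = 0.781 by limma). One of the 3 Dcx probes had the opposite sign. These mRNAs thus did not bear out the labels, by which the groups are called throughout.

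In all, 791 of 24891 genes differed at an adjusted p under 0.05. The 438 genes higher in Sox2-GFP cells are 1.76% of the genes tested and the 353 lower genes are 1.42%. Counts of called members of a list or family below are to be read beside these shares. At an unadjusted p under 0.05 by limma, 2101 of all 24891 genes were higher and 2114 lower. List counts at that threshold are to be read beside these 2 numbers. The groups of all 791 did not overlap, against 11.6% of all genes tested that were higher with no overlap and 13.1% that were lower with no overlap. The median difference over all genes was -0.07, that of the genes called higher was 3.82 and that of the genes called lower was -3.22. Without Sox2-GFP A, B or C in turn, 176, 244 and 505 genes were called higher and 163, 192 and 273 lower. Without DCX-DsRed A, B or C, 153, 189 and 210 were called higher and 96, 101 and 156 lower. Calls shared by all 6 of these fits numbered 113 higher and 84 lower, so most calls end when some array is left out.

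**Figure D1:**
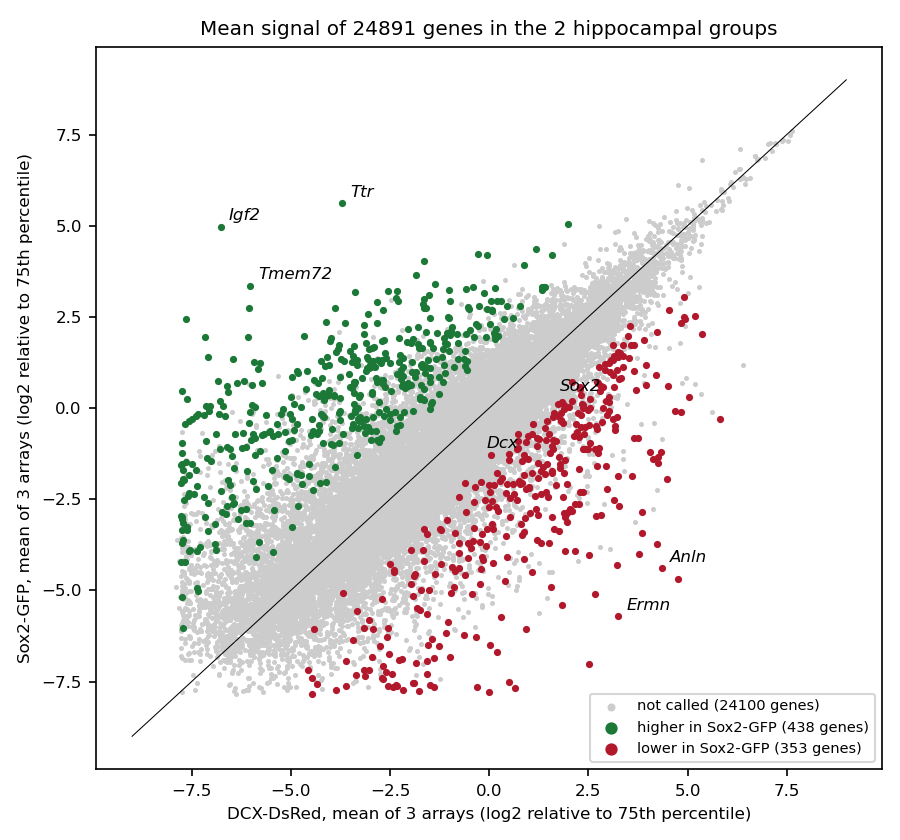
Mean log2 signal of each of 24891 genes over 3 DCX-DsRed arrays (x axis) and 3 Sox2-GFP arrays (y axis), each array's 75th percentile subtracted, with the line of equality. The 438 genes called higher in Sox2-GFP cells (green) lie above the line with Igf2, Tmem72 and Ttr farthest from it among the labelled ones, the 353 called lower (red) lie below it with Ermn and Anln, and Sox2 and Dcx lie among the genes not called (grey).

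No named gene differed more than Igf2, which encodes a secreted growth factor. It read 4.62, 4.37 and 5.93 on the Sox2-GFP arrays and -7.05, -6.67 and -6.59 on the DCX-DsRed arrays. It was high on every Sox2-GFP array, highest on C, and well above background on no DCX-DsRed array, so Igf2 was at least 1529-fold higher in Sox2-GFP cells (adjusted p = 0.000116 by limma). Igf2 was called in all 6 fits that leave out 1 array. Igf1r, the receptor that transmits its signal, read 1.32, 1.12 and 1.43 against -0.24, -0.63 and 1.43, and Igf2r, which clears it, read -1.72, -3.02 and -3.93 against -1.78, -3.24 and -2.76, with neither called. Among the growth factors and cytokines, 1 of 35 ligands was higher, which is Igf2, and 1 was lower. That lower ligand is Egf, epidermal growth factor (-2.46, -3.14 and -4.30 against -0.18, -0.16 and -0.83, log2 difference -2.91, SE 0.59, adjusted p = 0.0409). Egf was not called without Sox2-GFP array C (adjusted p = 0.0712) or in any other fit that leaves out 1 array.

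Igf2 is a known transcript of meninges and of choroid plexus, and genes of each tissue were listed. Of 17 measured genes on a list of meninges and fibroblasts, 3 (17.6%, against 1.76% of all genes) were called higher. They were Igf2 itself, Ogn, a matrix proteoglycan (-1.37, -1.46 and 0.69 against -3.83, -4.16 and -5.0), and Zic1, a transcription factor (-2.94, -2.25 and -0.68 against -4.74, -4.73 and -5.70). Of the 17 genes 12 had a positive difference, and the list's median difference was 0.73, against -0.07 over all genes. The groups of 6 did not overlap with Sox2-GFP higher, and those of 1 with Sox2-GFP lower (against 11.6% and 13.1% of all genes). The collagen genes Col1a1 and Col3a1 had differences of 0.11 and -0.58, and the proteoglycan Dcn of -0.49, none of them called. The array medians of this list ran from -1.83 to -1.47 in Sox2-GFP cells and from -2.70 to -1.98 in DCX-DsRed cells. The part of either tissue in the Igf2 difference was not tested.

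Choroid plexus genes were the most frequently called list among those higher in Sox2-GFP cells. Of 39 genes listed 37 were measured, and 18 (against 1.76% of all genes tested) were called higher and none lower. All but 1 of the 37 had a positive difference, and the list's median difference was 2.84 (2.26 without Sox2-GFP array C). Its median level was 1.47, 0.89 and 2.52 on Sox2-GFP A, B and C and -0.86, -1.82 and -1.81 on the DCX-DsRed arrays. Array C was thus the highest of the 6 for these genes.

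Of 11 secreted and carrier proteins on the list 5 were called higher, and of 5 transcription factors 3. Ttr, the carrier of thyroid hormone in cerebrospinal fluid, read 5.40, 5.03 and 6.43 on the Sox2-GFP arrays and -5.09, -4.83 and -1.18 on the DCX-DsRed arrays (log2 difference 9.32, SE 1.15, adjusted p = 0.00673 by limma). DCX-DsRed array C held more Ttr than DCX-DsRed A or B and still lay far under every Sox2-GFP array. Otx2, a homeodomain factor of choroid plexus, showed the same picture with 1.59, 1.15 and 3.14 against -7.23, -7.75 and -3.30 (adjusted p = 0.00992). Lmx1a, a homeodomain factor of the roof plate that forms this epithelium, read -1.85, -1.64 and -0.93 on the Sox2-GFP arrays and -7.16, -7.83 and -7.94 on the DCX-DsRed arrays. It was well above background on no DCX-DsRed array and at least 17.5-fold higher (adjusted p = 0.000608). Folr1, a folate receptor, Prlr, the prolactin receptor, and Calml4, a calmodulin-like protein, were also called (3.31, 3.91 and 5.50).

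Of 15 transporters and channels on this list, 8 were called higher, and all 15 had a positive difference. Tmem72, a membrane protein, read 3.53, 2.31 and 4.24 on the Sox2-GFP arrays and -7.39, -2.91 and -7.79 on the DCX-DsRed arrays, and DCX-DsRed B stood above A and C (log2 difference 9.39, SE 1.34, adjusted p = 0.0118 by limma). Clic6, a chloride channel protein, read 1.90, 1.12 and 3.11 against -2.94, -3.04 and -3.53, and Slc31a1, a copper importer, read 1.38, 0.85 and 3.40 against -3.02, -3.62 and -1.29 (adjusted p = 0.00338 and 0.0237). Slc4a5, a bicarbonate transporter, Kcne2, a potassium channel subunit, Atp2b3, a calcium pump, and Car12, a carbonic anhydrase, were higher by 3.56, 3.83, 3.44 and 2.84 log2 units. Kcne2 and the monoamine transporter Slc29a4 were not called without Sox2-GFP array C, and Slc29a4 was not called with the slide block. Aqp1, the water channel of the apical membrane, read -2.66, -4.36 and 1.54 against -7.33, -7.70 and -7.92 and was not called (adjusted p = 0.0724). Aqp1 was well above background on no DCX-DsRed array, and its level on Sox2-GFP array C was far above that on A and B. Slc4a2, an anion exchanger, read 2.80, 2.70 and 3.56 against 2.87, 2.92 and 2.84, and its groups overlapped.

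Of 6 junction and cytoskeleton genes on this list 2 were called higher, 5 had a positive difference, and the median difference was 1.25. The groups of 4 did not overlap with Sox2-GFP higher, and of 0 with Sox2-GFP lower (against 11.6% and 13.1% of all genes). Cldn1, a tight junction protein, read 1.88, -0.35 and 2.30 on the Sox2-GFP arrays and -5.64, -5.37 and -6.80 on the DCX-DsRed arrays (log2 difference 7.21, SE 0.74, adjusted p = 0.00350 by limma), and Cldn2, a claudin of leaky epithelia, read 2.04, 1.80 and 2.52 against -0.67, -0.41 and -1.81 (adjusted p = 0.00972). Cldn3 read 0.55, 0.75 and 0.27 against 0.81, 0.56 and 1.45, and the keratin Krt18 2.57, 1.98 and 2.50 against 2.36, 2.30 and 1.77, and neither was called. Outside the list, among the 30 genes named for the largest differences, Cgnl1, a cingulin-like protein of tight junctions, read 3.25, 2.39 and 3.94 against -2.94, -2.91 and -4.30 and Ezr, which ties membranes to actin, read 1.84, 1.95 and 3.30 against -5.33, -4.65 and -2.35 (adjusted p = 0.0191 and 0.00614). Spint2, an inhibitor of epithelial serine proteases, was well above background on no DCX-DsRed array and at least 43.2-fold higher (-0.36, -1.23 and 1.08 against -7.33, -6.63 and -8.06, adjusted p = 0.00300). Sema3b, a secreted semaphorin, read 2.33, 2.09 and 3.84 on the Sox2-GFP arrays and -4.16, -3.50 and -3.98 on the DCX-DsRed arrays, and was called in all 6 fits that leave out 1 array (log2 difference 6.63, SE 0.60, adjusted p = 0.00239). Ecrg4, a secreted peptide precursor, read 2.18, 1.72 and 4.32 against -6.34, -4.39 and -7.47 (adjusted p = 0.0155).

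**Figure D2:**
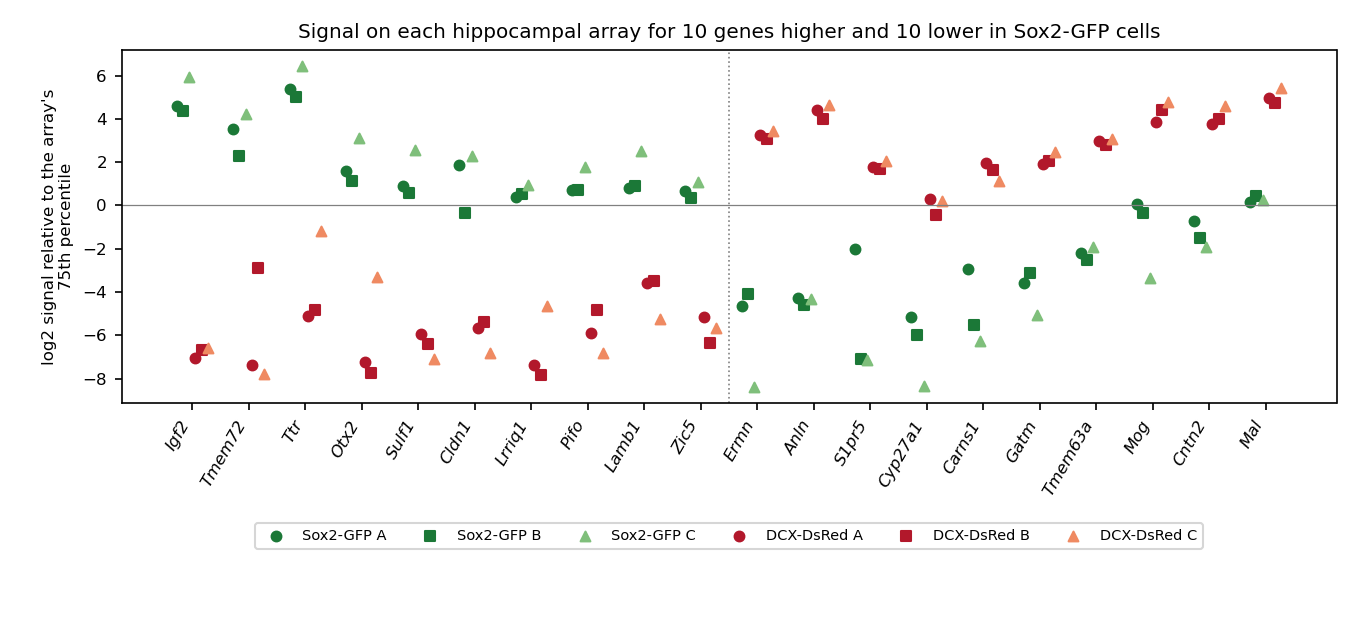
Log2 signal after subtraction of the array's 75th percentile (y axis) on each of the 6 hippocampal arrays for 10 genes called higher (left of the dotted line) and 10 called lower in Sox2-GFP cells (right), with green for Sox2-GFP, red for DCX-DsRed and the marker shape for the array. The green and red points of each gene do not overlap: Igf2 lies between 4.37 and 5.93 in Sox2-GFP cells and between -7.05 and -6.59 in DCX-DsRed cells, and Anln between -4.60 and -4.25 against 4.01 and 4.64.

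Genes of motile cilia, the beating cilia of ependymal cells, were the other large group higher in Sox2-GFP cells. Of 61 measured genes 17 (27.9%, against 1.76% of all genes) were called higher and none lower. Positive differences numbered 50, and the list's median difference was 1.89. Their median level was 0.76, 0.94 and 0.19 on Sox2-GFP A, B and C and -1.74, -1.80 and -2.32 on the DCX-DsRed arrays. Foxj1, the factor that switches on the motile cilium programme, read 1.38, 1.91 and 1.39 on the Sox2-GFP arrays and -2.77, -2.65 and -5.13 on the DCX-DsRed arrays (log2 difference 5.07, SE 0.72, adjusted p = 0.0113 by limma; it stands on the choroid plexus list too). With the slide block Foxj1 was not called (adjusted p = 0.0615). Rfx3, a factor that binds the X-box of ciliary promoters, read 1.27, 1.06 and 1.70 against -0.47, -0.17 and -1.74 (adjusted p = 0.0453), and was not called without Sox2-GFP array C (adjusted p = 0.0954). Rfx2, its relative, read 1.04, 1.22 and -0.33 against -1.63, -2.88 and -0.18 and was not called (adjusted p = 0.154).

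RefSeq promoters of the ciliary genes are shown because Foxj1 and Rfx3 differed together with the genes. The letters GTTGCC, a core of the X-box bound by RFX factors, were sought on both strands in 300 bases around each start (250 before it, GRCm38.p6). They occurred in 8 of 15 promoters (53.3%) of the 13 called ciliary genes in that table and in 26 of 56 promoters (46.4%) of the measured list. Over all 32851 promoters the share was 12.5%. For 30 promoters of the list of intraflagellar transport it was 43.3%, and for 27 promoters of called myelin genes 18.5%. The motifs were picked after the values were seen. Windows of 80 bases follow for 5 called genes, read along the gene, with 1 match each in capitals (that of Pifo is on the opposite strand). The Tekt1 window also holds a match on the opposite strand, left in lower case. A match describes the letters and is no evidence that a factor binds there.
Lrriq1: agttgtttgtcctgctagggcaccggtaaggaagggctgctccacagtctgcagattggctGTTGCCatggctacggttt
Mlf1: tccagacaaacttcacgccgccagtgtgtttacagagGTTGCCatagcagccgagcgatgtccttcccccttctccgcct
Dynlrb2: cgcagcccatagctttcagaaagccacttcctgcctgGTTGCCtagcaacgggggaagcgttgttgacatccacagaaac
Tekt1: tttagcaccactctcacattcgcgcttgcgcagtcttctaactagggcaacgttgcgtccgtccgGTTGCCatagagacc
Pifo: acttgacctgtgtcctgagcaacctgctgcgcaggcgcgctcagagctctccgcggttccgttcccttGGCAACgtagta
The windows of Lrriq1, Mlf1, Dynlrb2, Tekt1 and Pifo lie, in that order, at chr10:103236323-103236402, chr3:67373955-67374034, chr8:116504927-116505006, chr11:72361883-72361962 and chr3:106001498-106001577 (GRCm38.p6). The letters GGATTA, a core of OTX sites, were in 1 of 18 promoters (5.56%) of called choroid plexus genes and in 7.06% of all promoters. They were also in 4 of the 15 promoters (26.7%) of called ciliary genes and in 5 of 56 (8.93%) of the measured ciliary list. The letters ACAAAG, a core of SOX sites, were in 7 of 27 promoters (25.9%) of called myelin genes and in 18.7% of all promoters. Both were sought on both strands, and overlapping matches of different motifs were each counted.

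Calls were spread over several parts of the cilium. Of 22 dynein arm and assembly genes 3 were called, of 12 genes of radial spokes and the central pair 1, and of 22 other ciliary proteins 11. Lrriq1, a leucine-rich repeat protein, read 0.40, 0.51 and 0.93 on the Sox2-GFP arrays and -7.37, -7.85 and -4.65 on the DCX-DsRed arrays, and Pifo, which acts at the ciliary base, read 0.71, 0.74 and 1.76 against -5.87, -4.83 and -6.80 (adjusted p = 0.00864 and 0.0215). Cfap65, a protein of the axoneme, was among the brightest with 3.16, 4.07 and 2.41 against -2.37, -2.52 and -2.79 (log2 difference 5.77, SE 0.55, adjusted p = 0.00296 by limma). Tekt1, a filament protein of axonemal doublets, read 2.64, 3.18 and 3.49 against -1.39, -1.36 and -1.78 (adjusted p = 0.0153). Ttc25, which docks outer dynein arms, Dnah6, a dynein heavy chain, and Ccdc39, a ruler of axonemal repeats, were higher by 5.41, 4.20 and 2.97. Rsph1, a radial spoke head protein, was higher by 4.19. Without Sox2-GFP array C, Ttc25, Dnah6, Pifo, Ccdc113 and Dynlrb2 were not called. With the slide block, Lrriq1, Cfap43, Tekt1, Dnah6 and Dynlrb2 were not.

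Several ciliary genes were high on Sox2-GFP A and B and low on C. Enkur, a sperm tail and ciliary protein, read 0.99, 0.73 and -2.32 on the Sox2-GFP arrays and -7.11, -7.15 and -7.30 on the DCX-DsRed arrays. It was called and was at least 42.3-fold higher (adjusted p = 0.0133). Of the 6 fits that leave out 1 array, only 3 called it. Spef2 and Cfap221, of the central pair, read 1.08, 0.80 and -6.84 and -2.24, 0.83 and -8.16 on Sox2-GFP A, B and C, so array C was at the level of the DCX-DsRed arrays, and neither was called (adjusted p = 0.233 and 0.318). Tmem212, a marker of ependymal cells, read -1.25, 0.05 and -8.39 against -7.26, -7.66 and -7.89 (adjusted p = 0.283). Dnah9, a heavy chain of outer arms, had a negative difference at 4.41, 4.46 and 4.59 against 5.80, 5.56 and 4.67, not called. Outside the list, 2 ciliary genes had adjusted p-values among the smallest of all genes: Kif9, a ciliary kinesin (0.85, 0.93 and 1.06 against -2.46, -2.05 and -2.47, log2 difference 3.27, SE 0.29, adjusted p = 0.00231), and Daw1, a dynein assembly factor (1.23, 0.86 and 0.39 against -3.95, -3.92 and -4.75, log2 difference 5.03, SE 0.41, adjusted p = 0.00156).

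The base of the cilium and the transport into it formed a separate list. Of 33 measured genes 3 (9.09%, against 1.76% of all genes) were called higher, 26 had a positive difference, and the median difference was 1.48. Rpgrip1l, of the transition zone, read 1.08, 0.65 and 2.03 on the Sox2-GFP arrays and -2.66, -2.55 and -1.58 on the DCX-DsRed arrays (adjusted p = 0.00874; 1 of its 6 probes had the opposite sign). Ift74, of the transport particle, read 0.65, 0.17 and 2.15 against -1.49, -1.91 and -2.16 (adjusted p = 0.0354). Tmem67, of the transition zone, was at least 16.6-fold higher (-1.83, -1.10 and -1.74 on Sox2-GFP A, B and C) and was not called without array C or with slide as a block. Tmem216, of the same zone and outside the list, read -0.12, 0.74 and -0.48 against -4.64, -7.53 and -7.97 (adjusted p = 0.0202, and 0.0799 with the slide block). The motor genes Kif3a and Kif3b had differences of -0.76 and -0.16, and neither was called.

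Families taken by the start of the gene symbol were a choice made after the values were seen. Of 29 Cfap genes, cilia and flagella associated proteins, 6 (20.7%, against 1.76% of all genes) were called higher and none lower. Of 346 solute carriers, 12 (3.47%) were called higher and 3 (0.867%) lower. Slc6a20a, a proline transporter, read 0.76, -0.13 and 3.09 on the Sox2-GFP arrays and -5.60, -5.17 and -6.58 on the DCX-DsRed arrays (log2 difference 7.03, SE 0.87, adjusted p = 0.00691 by limma), and was called in all 6 fits that leave out 1 array. Slc4a10, a sodium bicarbonate transporter, read 2.52, 1.28 and 3.97 against -3.99, -2.66 and -2.49, and Slc2a12, a glucose transporter, read 0.12, 0.06 and 2.02 against -4.90, -7.67 and -7.94 (adjusted p = 0.0151 and 0.0309). Slc2a12 was not called without Sox2-GFP array C. Of 4 Zic genes, zinc finger factors of the dorsal midline, 3 were called higher: Zic5 (0.66, 0.37 and 1.07 against -5.14, -6.36 and -5.68), Zic2 (1.65, 1.91 and 3.26 against -3.76, -0.95 and -4.74) and Zic1. Zic5 was well above background on no DCX-DsRed array and at least 74.4-fold higher. Zic2 was not called without array C (adjusted p = 0.0580) or with the slide block (adjusted p = 0.0615). Of 728 olfactory receptor genes, which these cells are not known to use, 2 (0.275%) were called higher and 4 (0.549%) lower.

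Basement membrane chains were among the called matrix genes. Of 42 genes of extracellular matrix and proteoglycans 6 (14.3%, against 1.76% of all genes) were called higher and none lower, while the list's median difference was 0.01. Col4a5, a collagen chain of basement membranes, read 0.17, 0.31 and -0.27 on the Sox2-GFP arrays and -7.44, -7.18 and -6.81 on the DCX-DsRed arrays. It was well above background on no DCX-DsRed array and at least 51.0-fold higher (adjusted p = 0.000237 by limma). Lamb1, a laminin chain, read 0.79, 0.91 and 2.50 against -3.56, -3.47 and -5.26 (log2 difference 5.50, SE 0.98, adjusted p = 0.0270), and Col8a2, a short-chain collagen, -0.01, -0.53 and 1.23 against -4.03, -3.74 and -4.71 (adjusted p = 0.0207). Col4a1 and Col4a2, the common basement membrane chains, had differences of -0.01 and 0.94 and were not called. In the heparan sulfate system 3 of 17 genes were higher. Sulf1, which trims sulfate from heparan sulfate and so sets growth factor binding, was at least 124-fold higher (0.88, 0.60 and 2.57 against -5.94, -6.38 and -7.07, adjusted p = 0.00413). Its relative Sulf2 read 0.03, 0.29 and 0.09 against 1.83, 0.71 and 0.62 and was not called. The proteoglycans Sdc4 and Sdc2 were higher by 2.64 and 1.92. Without Sox2-GFP array C, Lamb1 and Sdc2 were not called (adjusted p = 0.0586 and 0.0586), nor was Lamb1 with the slide block (adjusted p = 0.0778).

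In the BMP and TGF beta list 4 of 36 (11.1%, against 1.76% of all genes) were higher and none lower: the ligands Bmp7 (0.47, 0.04 and 2.16 against -2.19, -2.29 and -2.14) and Bmp6 (2.03, 1.70 and 2.48 against 0.24, 0.45 and -0.34), the receptor Tgfbr2 (0.86, 0.21 and 1.46 against -1.51, -0.74 and -1.52) and Id4, a target that blocks helix-loop-helix factors. Id4 read 2.42, 3.17 and 2.66 on the Sox2-GFP arrays and -2.57, -0.77 and -1.41 on the DCX-DsRed arrays and was called in all 6 fits that leave out 1 array (log2 difference 4.34, SE 0.55, adjusted p = 0.00726 by limma), but not with the slide block (adjusted p = 0.0562). Bmp7, Bmp6 and Tgfbr2 were not called without Sox2-GFP array C (adjusted p = 0.0531, 0.0684 and 0.0766), and Tgfbr2 was not called with the slide block (adjusted p = 0.0508). Id1 and Id3, relatives of Id4, had differences of 2.88 and 0.10 and were not called (adjusted p = 0.123 and 0.957). In the Wnt list 2 of 44 (4.55%) were higher and 1 (2.27%, against 1.42% of all genes) lower. Sostdc1, a secreted inhibitor of Wnt and BMP signals and a choroid plexus gene, read 1.68, 0.81 and 3.02 on the Sox2-GFP arrays and -3.96, -4.26 and -3.80 on the DCX-DsRed arrays (log2 difference 5.85, SE 0.54, adjusted p = 0.00244 by limma). Fzd4, a Wnt receptor, read -1.04, -0.43 and 1.43 against -5.25, -5.04 and -5.30 (log2 difference 5.18, SE 0.65, adjusted p = 0.00718), and the ligand Wnt3 was lower at -2.36, -2.38 and -4.20 against 0.11, 0.90 and 0.59 (log2 difference -3.51, SE 0.57, adjusted p = 0.0184). No gene of 20 in the Notch list was called by limma. At an unadjusted p under 0.05, 4 were higher and 2 lower, against 2101 and 2114 of all 24891 genes. Hes1, its target, read 2.05, 1.31 and 3.02 against -3.45, -3.16 and 0.02 (adjusted p = 0.0929), with DCX-DsRed array C above A and B, and Hes5, a target of stem cells, read 4.87, 4.83 and 4.83 against 4.68, 4.29 and 4.62. Among 27 receptors of growth factors, Ntrk2, the receptor of BDNF, was higher at 2.94, 2.80 and 3.10 against -0.36, 0.38 and 0.84 (log2 difference 2.66, SE 0.51, adjusted p = 0.0337), and Erbb3, a neuregulin receptor, was lower at -0.21, -0.43 and -0.56 against 1.78, 2.04 and 1.75 (log2 difference -2.25, SE 0.35, adjusted p = 0.0151). Ntrk2 was not called without array C (adjusted p = 0.0698) or with the slide block (adjusted p = 0.0949).

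Of 74 respiratory chain genes 58 had a positive difference, against 11633 of all 24891 genes, and the median difference was 0.72, while 1 gene, Cox5a, was called (0.36, 0.30 and 1.52 against -3.20, -1.66 and -5.31, adjusted p = 0.0473). Of 24 genes of fatty acid oxidation and ketone bodies 3 (12.5%, against 1.76% of all genes) were higher. Etfa, which takes electrons from fatty acid oxidation, read 1.18, 1.43 and 1.52 on the Sox2-GFP arrays and -2.61, -2.37 and -2.84 on the DCX-DsRed arrays (log2 difference 3.98, SE 0.35, adjusted p = 0.00231 by limma). Acaa2, a thiolase, and Bdh1, which handles ketone bodies, were higher by 3.31 and 2.82. Cox5a and Bdh1 were not called without Sox2-GFP array C (adjusted p = 0.104 and 0.0945) or with the slide block (adjusted p = 0.0693 and 0.0605), and Acaa2 was not called without array C (adjusted p = 0.0674). Of 18 glycolysis genes 2 (11.1%) were higher, Eno1 (3.99, 3.52 and 5.11 against 1.56, 1.29 and 1.89) and Pfkl (1.72, 1.54 and 2.59 against 0.27, -0.41 and -0.09), and Ldha, lactate dehydrogenase A, stood at 1.84, 2.11 and 1.87 against 2.15, 1.80 and 2.48, not called. Ribosomal protein genes, 76 in number, had a median difference of 0.29, with none called by limma and 4 higher at an unadjusted p under 0.05.

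The astrocyte and stem cell lists, the types the Sox2 reporter is meant to include, depended on the array. Of 40 astrocyte and radial glia genes 3 (7.5%, against 1.76% of all genes) were called higher and none lower, with a median difference of 0.65. The list's median was 2.03 and 2.26 on Sox2-GFP A and B but -1.04 on C, and 0.19, 0.03 and 0.88 on the DCX-DsRed arrays. The called genes were high on array C too. Slco1c1, a thyroid hormone transporter that choroid plexus also uses, read 2.56, 2.32 and 4.10 on the Sox2-GFP arrays and -2.22, -3.36 and 0.66 on the DCX-DsRed arrays, Clu, the chaperone clusterin, 4.11, 3.84 and 4.67 against 0.15, -1.29 and 0.95 and Slc7a10, a serine transporter, 2.69, 2.98 and 2.47 against -0.48, -1.15 and 0.12 (adjusted p = 0.0450, 0.0122 and 0.0115). Slco1c1 was not called without array C (adjusted p = 0.0985) or with the slide block (adjusted p = 0.0691). Without array C the median difference was 1.76 and 9 members were called higher, against 505 of all 24891 genes. These 9 included Vim (5.30, adjusted p = 0.0114), Aqp4 (3.13, adjusted p = 0.0115) and Gja1 (3.15, adjusted p = 0.0237). With the slide block, where the group rests on array C, the list's median difference was -1.45, against -0.17 over all genes. Gfap, the astrocyte filament, read 2.29, 2.89 and 0.65 against 1.73, 1.48 and 1.67 and overlapped.

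Of 29 stem and progenitor genes, Id4 was the 1 called higher, and none was lower. Sox9, which acts beside Sox2, read 2.38, 2.38 and 2.49 against 2.15, 2.53 and 1.08, and Nr2e1, an orphan receptor of stem cells, read -3.06, -5.45 and -8.46 against -1.36, -2.75 and -5.30. Neither was called. Of 49 measured cell cycle genes none was called in either direction by limma, with 4 higher and 2 lower at an unadjusted p under 0.05, and their median difference was -0.32. Ect2, of cytokinesis, had the smallest p of them (-5.06, -4.96 and -3.83 against -7.15, -5.99 and -7.86, adjusted p = 0.0625). Ect2 was well above background on no DCX-DsRed array. Mki67, the proliferation marker, read 0.59, -0.12 and -1.04 against 1.74, 1.72 and 1.30 and was not called.

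**Figure D3:**
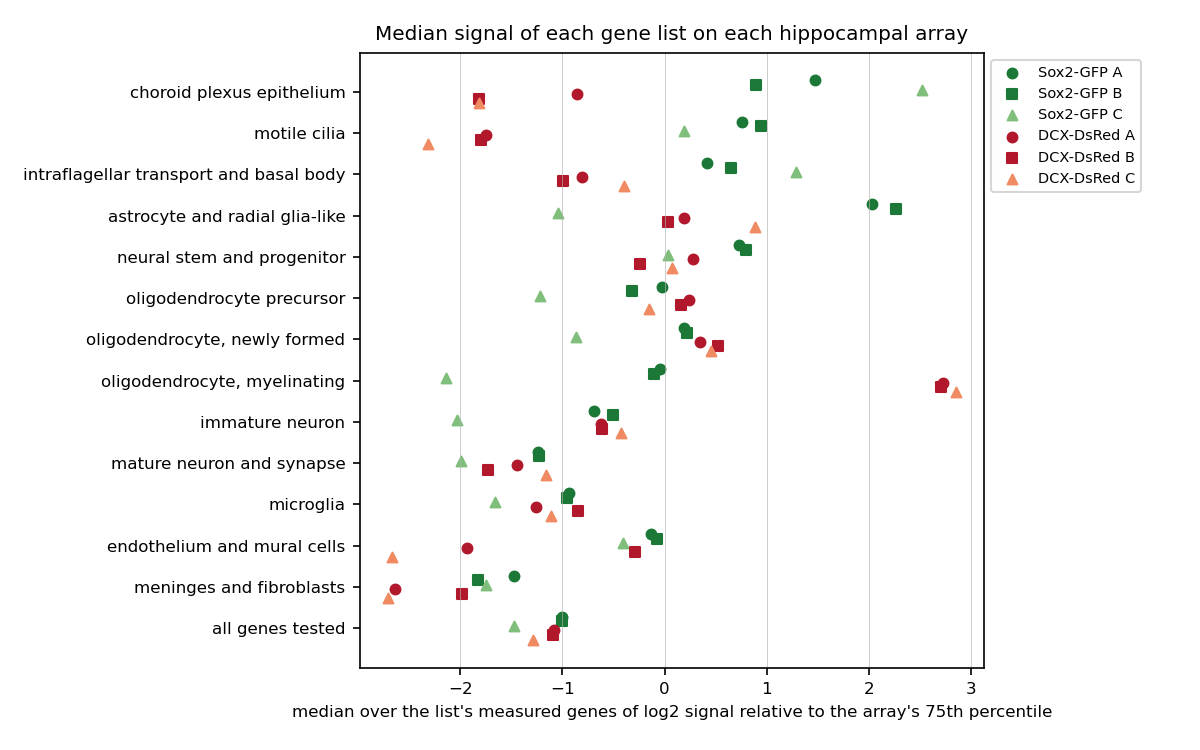
Median, over the measured genes of each list, of log2 signal after subtraction of the array's 75th percentile (x axis) on each of the 6 hippocampal arrays, with all genes tested at the bottom. For the choroid plexus list the Sox2-GFP arrays (green) lie at 1.47, 0.89 and 2.52, right of the DCX-DsRed arrays (red), for the myelinating list the red points lie near 2.7 to 2.9, and for the astrocyte list Sox2-GFP array C lies at -1.04, left of all other points.

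On the other side of the comparison, genes of myelinating oligodendrocytes were lower in Sox2-GFP cells, which is to say higher in cells sorted by the DCX-DsRed reporter. Of 63 measured genes 27 (against 1.42% of all genes tested) were called lower and none higher, and the groups of 51 genes on the list did not overlap in that direction (against 13.1% of all genes). The list's median difference was -3.43. Its median level was 2.72, 2.71 and 2.85 on the DCX-DsRed arrays and -0.05, -0.11 and -2.14 on Sox2-GFP A, B and C. On the DCX-DsRed arrays these transcripts were thus well above the 75th percentile, at like levels on all 3.

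Myelin proteins formed the core of this group, with 8 of 19 called. Ermn, a cytoskeletal protein of myelin, read -4.66, -4.08 and -8.39 on the Sox2-GFP arrays and 3.24, 3.08 and 3.45 on the DCX-DsRed arrays (log2 difference -8.97, SE 1.0, adjusted p = 0.00484 by limma). Mal, a proteolipid of myelin, read 0.17, 0.45 and 0.26 on the Sox2-GFP arrays and 4.95, 4.71 and 5.42 on the DCX-DsRed arrays, with little spread in either group (log2 difference -4.73, SE 0.34, adjusted p = 0.000866). Mog, at the outer face of the sheath, read 0.06, -0.33 and -3.35 against 3.84, 4.41 and 4.76, and Cnp, of the myelin cytoplasm, 1.24, 0.87 and -2.34 against 4.51, 4.54 and 4.97. Both were lower on Sox2-GFP C than on A and B (adjusted p = 0.0211 and 0.0271). Mbp, myelin basic protein, was not called, although its groups did not overlap. It read 1.95, 2.55 and -2.51 against 5.04, 5.06 and 5.50 (adjusted p = 0.131), and Sox2-GFP array C lay far under A and B. Myrf, the factor that drives myelin genes, read -0.47, -0.79 and -2.05 against 2.73, 2.98 and 2.57 (adjusted p = 0.0349), and was not called without array C (adjusted p = 0.0738) or with the slide block (adjusted p = 0.0658).

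Lipid enzymes and cytoskeletal genes of these cells were lower as well. Cyp27a1, a sterol hydroxylase, was well above background on no Sox2-GFP array and was at least 47.2-fold lower (-5.16, -5.99 and -8.35 against 0.28, -0.45 and 0.21, adjusted p = 0.00801). Gatm, of creatine synthesis, read -3.59, -3.10 and -5.07 on the Sox2-GFP arrays and 1.93, 2.07 and 2.46 on the DCX-DsRed arrays (log2 difference -6.07, SE 0.53, adjusted p = 0.00216 by limma). Fa2h and Ugt8a, which make the galactolipids of myelin, were lower with differences of -4.55 and -3.43, and Carns1, carnosine synthase, of -6.47. Anln, anillin, read -4.25, -4.60 and -4.32 on the Sox2-GFP arrays and 4.39, 4.01 and 4.64 on the DCX-DsRed arrays, with little spread in either group (log2 difference -8.74, SE 0.43, adjusted p = 0.000185). Evi2a, a membrane protein, and Pde8a, a phosphodiesterase, were lower with differences of -5.68 and -5.04. Of receptors and junctions, S1pr5, a sphingosine phosphate receptor, read -2.0, -7.08 and -7.12 against 1.79, 1.69 and 2.06 and Gjb1, a connexin, -2.24, -2.45 and -3.92 against 1.97, 1.84 and 2.11 (adjusted p = 0.0431 and 0.00338). S1pr5, Carns1 and Ugt8a were not called without Sox2-GFP array C, and S1pr5 was not called with the slide block. Without array C 24 members of the list were called lower, against 273 of all 24891 genes. With the slide block the list's median difference was -4.89, against -0.17 over all genes.

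Hapln2, a hyaluronan-binding protein of nodes and a member of the myelin list, read -1.78, -1.40 and -1.57 on the Sox2-GFP arrays and 2.75, 2.61 and 2.80 on the DCX-DsRed arrays (log2 difference -4.30, SE 0.27, adjusted p = 0.000608 by limma). Outside the list, Tmem63a, a mechanically gated channel, read -2.18, -2.52 and -1.94 on the Sox2-GFP arrays and 2.98, 2.82 and 3.09 on the DCX-DsRed arrays (log2 difference -5.17, SE 0.36, adjusted p = 0.000808 by limma). Pex5l, a regulator of pacemaker channels, read -2.84, -2.90 and -3.23 on the Sox2-GFP arrays and 1.79, 1.82 and 2.11 on the DCX-DsRed arrays (log2 difference -4.90, SE 0.32, adjusted p = 0.000608). All 3 genes had little spread within either group. Galnt6, which starts O-glycans, and Gpr62, an orphan receptor, were lower with differences of -4.91 and -3.94. Efnb3, an ephrin, read -1.56, -0.16 and -2.82 against 4.15, 3.96 and 4.63, and Ndrg1, a stress-responsive protein of myelinating glia, -0.83, -1.48 and -3.25 against 3.08, 3.18 and 3.48 (adjusted p = 0.00878 and 0.0122). Tnfaip6, a hyaluronan-binding protein, read -4.84, -6.68 and -5.64 against -0.19, 0.35 and 0.70 (log2 difference -6.0, SE 0.53, adjusted p = 0.00231), and Klhl4, a kelch protein, was at least 13.6-fold lower (-7.20, -7.63 and -8.45 against -1.46, -1.85 and -2.02, adjusted p = 0.000669). Members of the Speer family, whose copies are near identical and may share probes' targets, were also lower (Speer4a -7.96, Speer4b -7.79), and the 2 probes of Speer2 differed in sign.

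Earlier stages of the oligodendrocyte lineage were listed separately. Of 20 measured genes of precursors 1 (5%, against 1.42% of all genes) was lower, the protocadherin Pcdh15 (-7.33, -7.45 and -7.42 against -3.04, -1.87 and -3.18, adjusted p = 0.0241). It was well above background on no Sox2-GFP array and at least 7.19-fold lower. Pcdh15 was not called without Sox2-GFP array C (adjusted p = 0.0502) or with the slide block (adjusted p = 0.116). Pdgfra, the growth factor receptor of precursors, read -0.63, -0.85 and 2.34 against -1.29, -2.62 and -1.96, and Cspg4, their proteoglycan, 0.06, 0.01 and -0.41 against 1.23, 0.50 and -0.26, and neither was called. The lineage factors Sox10 and Olig1 read 1.42, 0.56 and -0.87 against 3.24, 2.92 and 3.60 and -0.42, -3.79 and -8.40 against 1.94, 2.47 and 2.34, with no overlap and adjusted p = 0.0583 and 0.0844. Of 15 genes of newly formed oligodendrocytes none was called by limma in either direction, and the median difference was -0.66. At an unadjusted p under 0.05, 2 were higher and 6 lower, against 2101 and 2114 of all 24891 genes. Enpp6, a marker of that stage, read -1.40, -0.05 and -8.44 against 0.35, 0.53 and 0.45 (adjusted p = 0.473). Whether the mature list differed more than the earlier lists was not tested.

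Genes of immature neurons, the cells the DCX-DsRed reporter is meant to mark, were on a further list. Of 60 measured genes 3 (5.0%, against 1.42% of all genes) were lower in Sox2-GFP cells and none higher, with a median difference of -0.63. The list's median level was -0.63, -0.61 and -0.42 on the DCX-DsRed arrays and -0.69, -0.50 and -2.03 on Sox2-GFP A, B and C. By this median of levels alone, A and B were at the DCX-DsRed level. Gene by gene, only 15 of the 60 had a positive difference, and without array C the median difference was -0.28. The groups of 19 did not overlap with Sox2-GFP lower, and those of 3 with Sox2-GFP higher (against 13.1% and 11.6% of all genes). The 3 called genes were Cntn2, an adhesion protein (-0.72, -1.52 and -1.94 against 3.76, 4.0 and 4.60, log2 difference -5.51, SE 0.53, adjusted p = 0.00309), Stmn1, a tubulin-binding protein (-0.27, 0.79 and -2.95 against 3.80, 3.26 and 3.87, log2 difference -4.45, SE 0.90, adjusted p = 0.0402), and Mapt, tau (2.76, 2.61 and 2.67 against 4.56, 4.64 and 4.38, log2 difference -1.85, SE 0.30, adjusted p = 0.0180). Mapt was not called with the slide block (adjusted p = 0.0541). Cntn2 and Mapt are also known from oligodendrocytes. Of the genes that mark newborn neurons of the dentate gyrus, Prox1, its granule cell factor, read 0.11, 1.08 and -0.65 against 2.90, 2.16 and 1.97 with no overlap (adjusted p = 0.0568), Sox11 -0.39, -0.34 and -0.84 against -1.19, -0.35 and -0.07 and Tubb3 -0.02, -0.18 and -0.74 against 0.29, 0.91 and -0.37, none of them called. The 7 RNA-binding protein genes all had a negative difference. Elavl3 read -0.75, -0.49 and -2.14 against 1.66, 2.11 and 2.25 (adjusted p = 0.0784), Elavl4 had a difference of -4.16 (adjusted p = 0.107), and none of the 7 was called.

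Of 37 genes of mature neurons and synapses, Dlg4, a scaffold of synapses, was called higher in Sox2-GFP cells (1.45, 1.49 and 1.93 against -1.47, -1.49 and -0.55, log2 difference 2.79, SE 0.40, adjusted p = 0.0120), and none was lower. The vesicle transporter Slc17a7 stood at -5.47, -6.90 and -7.09 against -4.02, -5.32 and -7.53, and its groups overlapped. Of 19 microglia genes none was called by limma, with 1 higher at an unadjusted p under 0.05, and of 8 blood cell genes none, with 1 higher and 1 lower. Of 23 genes of endothelium and mural cells 3 were higher: Tek, an angiopoietin receptor (-2.06, -2.25 and -2.47 against -6.17, -6.18 and -7.97; its 2 probes differed in sign), Vtn, vitronectin (-1.82, 0.25 and 0.15 against -3.73, -3.99 and -5.15), and Bsg, basigin (4.92, 4.24 and 5.99 against 1.75, 1.42 and 2.76), a gene that choroid plexus epithelium also expresses. Vtn was not called without Sox2-GFP array C (adjusted p = 0.0599), nor Tek with the slide block (adjusted p = 0.0759). Of these 23 genes 15 had a positive difference, and the list's median difference was 0.56, against -0.07 over all genes. Without Sox2-GFP array C the list's median was 0.96, and with the slide block it was -0.09 (against 0.06 and -0.17 over all genes). The groups of 6 did not overlap with Sox2-GFP higher, and those of 1 with Sox2-GFP lower (against 11.6% and 13.1% of all genes). Among the members not called, the endothelial markers Cldn5 and Pecam1 had differences of -0.20 and -0.03. Of 30 genes of the response to dissociation 1 was higher, Ccn1 (0.65, -0.25 and 0.13 against -3.02, -2.48 and -2.82, adjusted p = 0.0200, and 0.107 with the slide block), while Fos read 3.41, 3.74 and 4.32 against 3.58, 3.41 and 4.05.

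Of 37 genes of cholesterol synthesis and transport 4 (10.8%, against 1.42% of all genes) were lower, all of them carriers or oxidases and none of the 23 synthesis enzymes. They were Cyp27a1, Apod, a lipocalin (-0.40, 2.04 and -2.55 against 5.74, 5.64 and 6.09), Abca8a, a transporter (-1.05, -0.59 and -2.43 against 1.64, 1.39 and 2.25), and Abca2, a sterol transporter of myelinating cells (1.52, 1.88 and 1.12 against 3.32, 3.18 and 3.39). Abca2 was not called without array C (adjusted p = 0.0504). Of 17 transcription factors of regional identity 2 were higher, Zic2 and Otx1 (1.0, 1.67 and 1.99 against -0.63, -0.29 and -0.87, log2 difference 2.15, SE 0.35, adjusted p = 0.0191). Emx1, a factor of the forebrain's dorsal wall, had a difference of -0.57 and was not called. None of 47 chromatin regulators was called by limma, with 2 higher and 7 lower at an unadjusted p under 0.05.

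Within the Sox2-GFP group, array C was over 2 log2 units lower than the mean of A and B for 3974 genes and over 2 higher for 1106, a description of 1 array with no test. The genes lowest on array C, among those well above background on all 3, included glial genes. Gja1, the astrocyte connexin, read 1.53, 2.07 and -5.73 on A, B and C, Slc1a2, the glutamate transporter, 4.16, 4.44 and -2.81, and Mlc1, an astrocyte membrane protein, 1.87, 1.72 and -5.0. Cadm1, an adhesion protein, read 2.16, 2.40 and -5.78, and Tspan7, a tetraspanin, 3.87, 4.33 and -2.60. Ptprd, Ank2, Eif2ak2 and Cav1 were also among the 10 lowest, with array C minus the mean of A and B between -6.73 and -6.42 log2 units. The genes highest on array C were Mien1 (-3.31, -4.64 and 2.29), Riox1 (-3.35, -3.59 and 1.99), Fam136a (-4.43, -3.50 and 1.49), Defa23, Oxsm, Aqp1, Smpdl3b, Pbx3, Det1 and Mamdc2. By list, array C stood above the mean of A and B in the median of choroid plexus genes (1.21) and below it in those of astrocyte (-2.78), myelinating (-1.58), motile cilia (-0.71) and immature neuron genes (-0.81), against -0.38 over all genes.

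**Figure D4:**
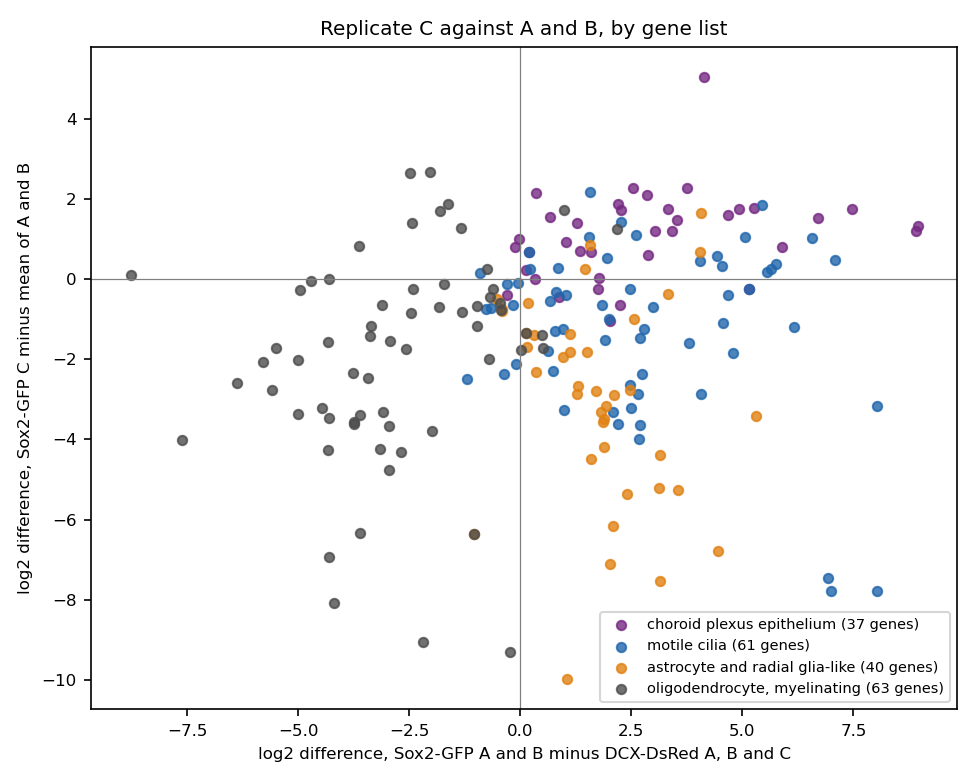
Each point is a gene of 1 of 4 lists, placed by the log2 difference between Sox2-GFP A and B and the DCX-DsRed arrays (x axis) and by the log2 difference between Sox2-GFP C and the mean of A and B (y axis). Choroid plexus genes (purple) lie mostly in the upper right, with a median of 1.21 on the y axis, astrocyte genes (orange) in the lower right, with a median of -2.78, and myelinating oligodendrocyte genes (dark grey) in the lower left, with a median of -1.58.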

How the data were processed

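Each of the 9 Agilent arrays was hybridised with amplified Cy3-labelled cDNA. The deposited intensity values are spot signals from Agilent Feature Extraction, background-subtracted, detrended and not normalized between arrays, with surrogate values for spots under the noise, per the file headers. Limma is named in the submitters' processing notes. No array total is a depth, so the number of arrays limits the precision.

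From 43379 non-control spots (41174 probes), outlier-flagged spots were left out, log2 processed signal was taken minus each array's 75th percentile, and spots of a probe were averaged. Genes were named by RefSeq accession for 22951 probes, by an older symbol for 3109 and as in the file for 14829, with 285 unnamed. In 1 file 26 gene symbols were altered, so names came from another. A probe was kept if 3 or more of the 9 arrays had it well above background, and the brightest probe by mean stood for its gene.

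All adjusted p-values are from limma (version 3.58.1 in R 4.3.3) with Benjamini-Hochberg adjustment, called under 0.05. Unless another fit is named, the fit was over all 9 arrays and 24891 genes with 6 residual degrees of freedom. Fits that leave out an array or add a slide block had fewer residual degrees of freedom, so a call can end there for that reason too. The fit was checked on simulated data. Where a group was well above background on none of its arrays, "at least N-fold" sets the bright group's mean against a floor averaged over the dim group: on each array the dimmest signal that any detected probe had, or the probe's own signal if that was larger. Gene names were printed for Sox2, Dcx and Igf2, for the 30 called genes a direction with the largest difference and the 10 with the smallest adjusted p, for 5 called members a list and direction (or the member with the smallest p), and for 10 genes a direction that set Sox2-GFP array C apart, though not every such gene is reported here. The 30 and the 10 came from called genes whose groups did not overlap. They also had to be well above background on all 3 arrays of the higher group. Symbols of clones, models or accessions were passed over, among them AK087052 (log2 difference 10.1) and AK046329 (-8.32). The members and lists were chosen with earlier results of these data known. Alternatives changed the scaling, background correction, probe filter, gene summary, arrays fitted, slide or replicate block and array weights, and left out each array.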

Additional observations from a re-analysis of the deposited data

How the results depend on the processing

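Counts of called genes (438 higher, 353 lower) depended on how spread was modelled. With slide as a fixed block 748 were higher and 1287 lower (269 and 232 shared with the calls reported), a fit whose Sox2-GFP side rests on array C. With array weights 2853 were higher and 2591 lower, which include all 438 and 353. Leaving out 1 array gave 153 to 505 higher and 96 to 273 lower. Deviations of same-lettered arrays correlated at -0.0013, -0.0099 and -0.0331, which shows no pairing by the letters A, B and C but cannot exclude it with 3 arrays a group. A replicate block gave 264 higher and 225 lower (238 and 208 shared). Counts under the other settings were within 1.5 times, from 339 higher with only the 6 hippocampus arrays to 599 with normexp background correction, and from 246 to 519 lower. The share of called genes that were higher was 55.4%, and 45.6% after median scaling. Quantile normalization gave 508 higher and 509 lower. Of the log2 differences of named genes under the alternatives, 2015 were unchanged, 339 fell short of the threshold, 24 passed it, and 1 reversed, the log2 difference of Dcx at 0.3401 with array weights. Unchanged means the same direction and the same side of the threshold. The 2015 include 119 differences within slide 3, which have no p-value and were judged by direction alone. The astrocyte list's median difference turned negative with slide as a fixed (-1.45) or random (-0.12) block and without Sox2-GFP array B (-0.05). The causes were not tested. With 3 arrays a group, a gene not called is not shown to be equal.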

Other observations

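Among the largest differences, some genes belong to no list. Higher in Sox2-GFP cells were Rab11fip1, of recycling endosomes (-0.24, -2.30 and 1.62 against -7.20, -7.79 and -7.49, adjusted p = 0.00705), Abca4, a retinoid transporter (-0.73, -0.49 and 2.53 against -5.77, -7.53 and -6.48, adjusted p = 0.0106), Cdkl4, a kinase (0.09, 0.58 and 0.72 against -7.34, -7.78 and -8.09, adjusted p = 0.00350), and Atp10d, a lipid flippase (-0.35, -0.94 and 0.62 against -7.13, -7.72 and -7.33, adjusted p = 0.0337). Atp10d was not called without Sox2-GFP array C (adjusted p = 0.0765) or with the slide block (adjusted p = 0.128). Ccdc146, a coiled-coil protein, read -0.41, 0.61 and 1.83 against -5.38, -6.21 and -7.50 (adjusted p = 0.00968). Each of these genes was well above background on no DCX-DsRed array. Rab11fip1, Abca4, Cdkl4, Atp10d and Ccdc146 were thus at least 39.3-, 65.8-, 67.1-, 41.6- and 77.6-fold higher. In the Ccdc family, taken after its values were seen, 7 of 110 genes (6.36%, against 1.76% of all genes) were higher and none lower.

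Lower in Sox2-GFP cells and outside the lists were Adcy5, an adenylate cyclase (-2.98, -4.64 and -6.64 against 0.62, -0.39 and 0.99, adjusted p = 0.0451), Dock10, an exchange factor of small GTPases (-2.31, -2.76 and -6.04 against 1.45, 1.52 and 1.54, adjusted p = 0.0337), Ppp1r14a, a phosphatase inhibitor (-1.61, -2.61 and -4.68 against 2.78, 2.63 and 2.68, adjusted p = 0.00625), and Nkain2, a partner of the sodium pump (-3.99, -1.58 and -3.84 against 1.26, 2.22 and 2.43, adjusted p = 0.00821). Adcy5 was not called without Sox2-GFP array C (adjusted p = 0.0819). The groups of each of these genes did not overlap, which was a condition for naming them here and not a separate result.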
